A study of Mus musculus with 24 samples.

Results

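The 6 libraries described here came from untreated mouse lung organoids, with 3 from the epithelial and 3 from the fibroblast fraction, out of 24 in the series. They were chosen by label as the EpiVeh group, epithelial cells of vehicle cultures (cells with Epcam on the surface), and the FibVeh group, fibroblasts of the same kind of culture (cells without Epcam). Each group held mouse 1, mouse 2 and mouse 3, and the whole transcriptome was compared between the fractions. Both groups had the wild-type genotype and received vehicle in place of cigarette smoke extract for 14 days. They were then dissociated, plated again with fresh CCL206 fibroblasts, and kept in vehicle in place of the drugs until day 28. Smoke-exposed cultures (CSE) had 5% extract in the first window, and drug-treated cultures (TF) had 100 nM tanimilast, a phosphodiesterase 4 inhibitor, with 100 nM formoterol, a bronchodilator, in the second. All cultures grew in growth factor-reduced Matrigel, a basement membrane gel, in medium with serum, insulin, epidermal growth factor and bovine pituitary extract. CCL206 is a single mouse lung fibroblast line, so the FibVeh libraries stand for repeat cultures of that line, and the mouse number is taken to name the donor animal of the epithelium. The sources used here give neither the strain, age or sex of the mice nor the way in which cells were separated by Epcam.

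Lung organoids of this kind grow because stromal cells support epithelial stem and progenitor cells. In the lung, mesenchymal cells secrete fibroblast growth factors, hepatocyte growth factor and Wnt-potentiating R-spondins, and lay down interstitial collagen. Epithelial cells carry the matching receptors, build tight junctions and desmosomes, and send Hedgehog, Wnt, platelet-derived growth factor and bone morphogenetic protein signals back. In bulk RNA of a fraction, fewer cells of a type and less RNA per cell cannot be told apart.

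The 3 EpiVeh libraries held 40930471 to 45923581 counts and the 3 FibVeh libraries 31832267 to 47029501. Levels are in CPM, the count scaled by library size and edgeR's TMM factors, and 1 CPM stood for 31.8 to 47.0 counts in these 6 libraries. Values of 3 libraries are given in the order mouse 1, mouse 2, mouse 3. The first principal component of log CPM over all genes tested held 67.3% of the variance and separated the fractions, with EpiVeh at 77.1, 50.4 and 81.5 and FibVeh at -69.8, -71.1 and -67.9. The epithelial library of mouse 2 stood apart from the other EpiVeh libraries on the first component, and at -54.5 on the second, which held 13.3% of the variance. Results that rest on that library are given with and without it.

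About as many genes were higher in one fraction as in the other, but more of the large differences were on the fibroblast side. Of 19142 genes tested, 9651 (50.4%) passed edgeR's quasi-likelihood test at a Benjamini-Hochberg adjusted p under 0.05. Of these, 4848 (25.3%) were higher in EpiVeh and 4803 (25.1%) in FibVeh, and counts over gene lists are to be read against these shares. The median log2 fold change of EpiVeh over FibVeh, over all genes tested, was 0.05. At least 2-fold differences were held by 1926 genes (10.1%) higher in EpiVeh and 2379 (12.4%) higher in FibVeh. Past 4-fold, 137 genes (0.716%) were higher in EpiVeh and 1348 (7.04%) in FibVeh. The levels of identity genes in the opposite fraction, given below, were unequal too. By group means, epithelial identity genes had in FibVeh a median of 37.4% of their EpiVeh level. Fibroblast identity genes had in EpiVeh a median of 15.3% of their FibVeh level. The part of these unequal shares in the counts was not tested. The genes at least 2-fold higher in EpiVeh took 16.9 to 17.1% of the counts of EpiVeh libraries and 6.86 to 7.36% of FibVeh libraries. Those at least 2-fold higher in FibVeh took 10.4 to 10.9% of FibVeh and 2.51 to 3.54% of EpiVeh libraries. Without the epithelial library of mouse 2, 8970 genes passed, with 1616 at least 2-fold higher in EpiVeh and 2561 in FibVeh. When all 8 libraries of mouse 3 were left out, 5769 genes passed, 2728 higher in EpiVeh and 3041 in FibVeh. The spread behind the p-values was pooled over all 24 libraries in 8 groups, treated groups included. It covers 3 animals in the epithelial groups and cultures of a single line in the fibroblast groups.

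All 20 epithelial identity genes were higher in EpiVeh, where 25.3% of all genes tested were. Their median log2 fold change was 1.42, and the values lay close together, between 1.16 for the transcription factor gene Ehf and 1.67 for Epcam. Epcam, the adhesion protein used to name the fractions, was at 1379, 918 and 1703 CPM in EpiVeh and 379.8, 310.1 and 566 CPM in FibVeh (log2 fold change 1.67 ± 0.27, adjusted p = 6.47e-05, where ± is the standard error here and below). The 3 EpiVeh libraries lay above all FibVeh libraries, as they did in one direction or the other for 59.9% of all genes tested, and no FibVeh library was near 0. Cdh1, which encodes E-cadherin of the adherens junction, was at 1240, 1104 and 1301 CPM in EpiVeh and 402, 404 and 489 CPM in FibVeh (log2 fold change 1.49 ± 0.18, adjusted p = 3.51e-06). Krt8, a keratin of simple epithelia, was at 1823, 1685 and 2046 CPM in EpiVeh and 600.5, 519 and 728 CPM in FibVeh (log2 fold change 1.59 ± 0.19, adjusted p = 3.81e-06). Neither gene overlapped between the groups, and Cldn4, a claudin of tight junctions, showed the same separation (log2 fold change 1.61 ± 0.26, adjusted p = 5.63e-05). Esrp1 (1.42 ± 0.16), an epithelial splicing factor, and Grhl2 (1.42 ± 0.18), a grainyhead-family transcription factor of epithelial barriers, were also higher in EpiVeh. Ehf lost the call without EpiVeh mouse 2 or FibVeh mouse 1 or 3 (adjusted p = 0.0542 to 0.0954).

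**Figure D1:**
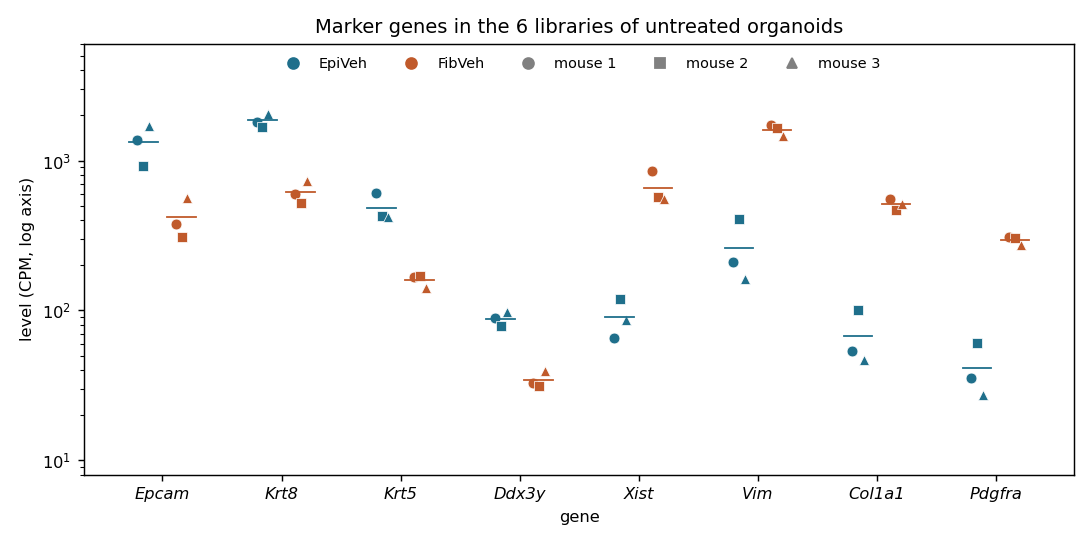
Level of 8 marker genes in each of the 6 libraries, in CPM on a log axis, with EpiVeh and FibVeh side by side, a symbol for each mouse number and a bar at the group mean. Epcam, Krt8, Krt5 and the Y-linked gene Ddx3y are higher in EpiVeh, Xist, Vim, Col1a1 and Pdgfra are higher in FibVeh, and the groups do not overlap for any of the 8.

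Promoters of epithelial genes can carry the E-box CAGGTG, a site through which repressors such as Zeb1 and Zeb2 act on epithelial genes including Cdh1. Windows from 250 bases before to 50 after the start, from RefSeq on GRCm38.p6, were searched for CAGGTG on both strands, which is CAGGTG or CACCTG in the printed strand. Among the genes at least 2-fold higher in EpiVeh, 1139 of 1926 had a window and 372 of those (32.7%) held the E-box. It was held by 200 of 1291 windows (15.5%) of genes at least 2-fold higher in FibVeh, and by 2138 of 11621 windows (18.4%) of all genes tested. The median GC content of the windows was 58.7% in both sets and 60.3% over all genes. Of the epithelial identity genes, 10 had a window and 8 of them held the E-box, whereas 0 of 10 windows of fibroblast identity genes did. The E-box was in 7 of 11 windows of tight junction and desmosome genes and in 2 of 6 of basal cell genes. It was in 3 of 11 windows of contractile genes and in 1 of 12 of collagen genes. The grainyhead-type motif AACNGGTT, searched on both strands, was in 2.37% of the windows of EpiVeh genes, 1.32% of those of FibVeh genes and 1.91% of all. The CArG box of serum response factor was in 2.28, 1.01 and 1.36% in the same order. A match is a description of letters and not a site of binding. The windows of 3 epithelial identity genes that hold it are printed 5′ to 3′ along the gene's strand, to show where the E-box lies in genes that parted the fractions, with the E-boxes in capitals, and Epcam and Krt8 were picked for this after the search. That of Epcam spans chr17:87635729-87636028 on the plus strand, that of Cldn4 chr5:134946885-134947184 on the minus strand and that of Krt8 chr15:102004293-102004592 on the minus strand.
Epcam: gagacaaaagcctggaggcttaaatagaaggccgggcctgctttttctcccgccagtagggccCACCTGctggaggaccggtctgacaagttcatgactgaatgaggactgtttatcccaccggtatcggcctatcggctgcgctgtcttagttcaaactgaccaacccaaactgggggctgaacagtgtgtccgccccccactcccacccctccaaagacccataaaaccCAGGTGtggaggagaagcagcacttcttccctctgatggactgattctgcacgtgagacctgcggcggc
Cldn4: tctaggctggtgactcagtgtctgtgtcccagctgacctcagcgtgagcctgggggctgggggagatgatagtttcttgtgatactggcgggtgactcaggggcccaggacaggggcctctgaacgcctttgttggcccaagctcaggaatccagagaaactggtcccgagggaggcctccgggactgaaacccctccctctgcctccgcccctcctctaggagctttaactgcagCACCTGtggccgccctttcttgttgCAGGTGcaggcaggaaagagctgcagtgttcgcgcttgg
Krt8: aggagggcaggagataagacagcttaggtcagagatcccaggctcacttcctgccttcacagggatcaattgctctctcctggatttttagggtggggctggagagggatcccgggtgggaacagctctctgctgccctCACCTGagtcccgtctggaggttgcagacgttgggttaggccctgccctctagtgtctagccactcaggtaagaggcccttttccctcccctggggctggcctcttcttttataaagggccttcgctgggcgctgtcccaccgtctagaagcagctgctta
Zeb1 and Zeb2, which bind this E-box, were themselves among the fibroblast-side genes. Zeb1 was at 5.65, 11.7 and 4.04 CPM in EpiVeh and 49.3, 48.8 and 49.9 CPM in FibVeh (log2 fold change -2.79 ± 0.46, adjusted p = 7.08e-05). Zeb2 had -2.76 ± 0.49, and the groups overlapped for neither gene. Whether Zeb1 or Zeb2 acts on any of the genes with an E-box was not tested.

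Genes of each fraction were found in the opposite fraction as well, with shares that lay close together for epithelial identity genes and varied more for collagen genes. The 20 epithelial identity genes had in FibVeh a median of 34.5, 37.2 and 41.4% of the EpiVeh level of the same mouse number, and by group means they ranged from 31.4% for Epcam to 44.8% for Ehf. In the other direction, the 17 fibroblast identity genes tested had in EpiVeh a median of 11.9, 24.1 and 11.1% of their FibVeh level. By group means 14 of them lay between 13.2% for Pdgfrb and 17.5% for Cdh11, and Osr1, Meox1 and Fap stood at 92.7, 289.5 and 1006%. The 20 genes for collagens and their processing had a median of 15.4, 23.3 and 11.5%, and ranged from 9.5% for Col5a3 to 152.5% for Lox and 166.5% for Col12a1. The epithelial libraries of mouse 1 and mouse 3 were therefore close to each other, and mouse 2 was higher. Sex-linked genes gave shares of similar size. Xist, the RNA that coats the inactive X chromosome in female cells, was at 65, 119.9 and 86.8 CPM in EpiVeh and 847, 571 and 555 CPM in FibVeh (log2 fold change -2.86 ± 0.47, adjusted p = 6.75e-05). The Y-linked genes Ddx3y, Kdm5d, Uty and Eif2s3y went the opposite way. Ddx3y, which encodes an RNA helicase, was at 88.8, 78.3 and 97 CPM in EpiVeh and 32.7, 31.1 and 39.6 CPM in FibVeh (log2 fold change 1.35 ± 0.17, adjusted p = 4.68e-06), and Kdm5d, Uty and Eif2s3y had 1.40, 1.41 and 1.40. All 5 were found in every library of both fractions, and the groups did not overlap for any of them. In FibVeh, Ddx3y stood at 36.9, 39.7 and 40.8% of its EpiVeh level, within the range of the epithelial identity genes. In EpiVeh, Xist stood at 7.68, 21.0 and 15.6% of its FibVeh level, again with mouse 2 highest. The source of the RNA in the opposite fraction was not tested.

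**Figure D2:**
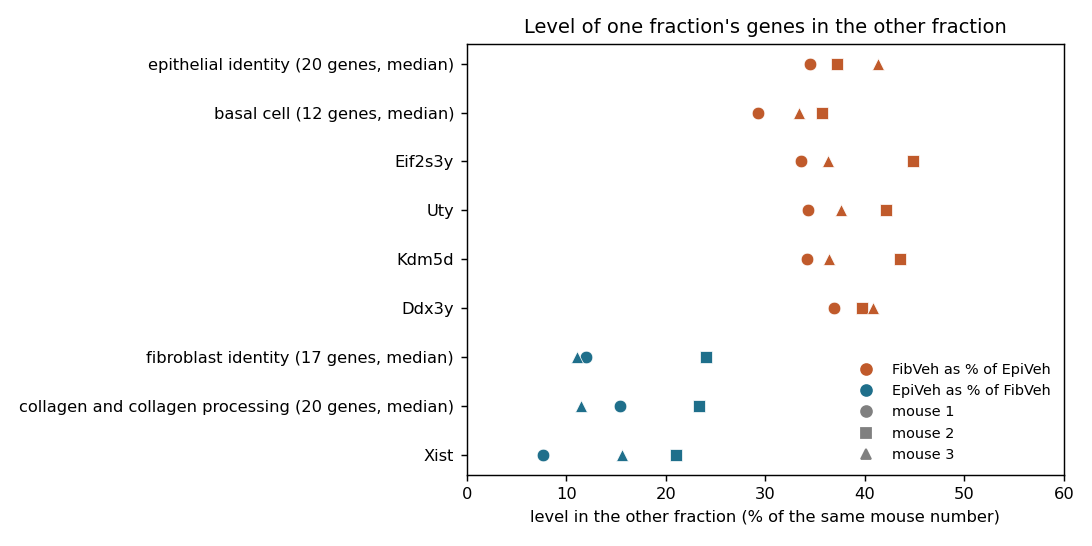
Level of one fraction's genes in the opposite fraction, in percent of the same mouse number, as the median over a gene list or the value of 1 sex-linked gene. Epithelial and Y-linked genes in FibVeh lie between 29.3 and 44.9%, and fibroblast genes and Xist in EpiVeh between 7.68 and 24.1%, with mouse 2 highest among the latter.

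Basal stem cell genes and cell junction genes were higher in the epithelial fraction almost without exception. Of 12 basal cell genes, 10 were higher in EpiVeh and 0 in FibVeh, with a median of 1.64. Trp63, the transcription factor of airway basal cells, was at 102, 96.4 and 81.3 CPM in EpiVeh and 27.2, 28.8 and 25.9 CPM in FibVeh (log2 fold change 1.77 ± 0.23, adjusted p = 7.6e-06). Krt5, a keratin of basal cells, was at 611, 427 and 418 CPM in EpiVeh and 167, 169.6 and 141 CPM in FibVeh (log2 fold change 1.61 ± 0.39, adjusted p = 0.00212). Both were separated in all libraries. Krt17 (1.91 ± 0.46) and Krt6a (1.76 ± 0.40), keratins of basal and stressed epithelium, were above Epcam's fold. Krt17 lost the call with mouse 1 left out (adjusted p = 0.056). Of 24 tight junction and desmosome genes, 22 were higher in EpiVeh and 0 in FibVeh, and of 13 genes for hemidesmosomes, laminin-332 and integrins, 11 were higher in EpiVeh. Lama3 and Lamb3, chains of the laminin that anchors basal cells, had 1.69 and 1.66. Itgb4, the integrin chain of hemidesmosomes, had 1.62 ± 0.19. Col7a1, the collagen of anchoring fibrils, was the exception and was higher in FibVeh (log2 fold change -0.52 ± 0.16, adjusted p = 0.012). Col7a1 lost the call without FibVeh mouse 1 (adjusted p = 0.0503). The desmosomal genes Dsp (1.45), Dsg2 (1.58) and Pkp1 (1.43) and the tight junction gene Ocln (1.44) lay near the median of epithelial identity genes.

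A smaller set of genes exceeded the fold of every epithelial identity gene. In all, 302 genes, 1.58% of those tested and 6.23% of those higher in EpiVeh, had a larger positive fold than Epcam and passed the test. Of these, 92 had at least 5 CPM in EpiVeh and were higher in 3 of 3 mouse pairs. Crct1, a gene of the cornified envelope of squamous cells, was at 10.2, 18.6 and 9.64 CPM in EpiVeh and 2.25, 1.21 and 1.16 CPM in FibVeh (log2 fold change 3.06 ± 0.48, adjusted p = 3.95e-05). Cldn1, a barrier claudin of stratified epithelium, was at 46.5, 29.4 and 66.1 CPM in EpiVeh and 7.34, 4.65 and 13.1 CPM in FibVeh (log2 fold change 2.51 ± 0.42, adjusted p = 7.81e-05). Cldn6, a claudin of early epithelia, was at 9.06, 8.42 and 10.8 CPM in EpiVeh and 1.55, 1.15 and 1.84 CPM in FibVeh (log2 fold change 2.64 ± 0.48, adjusted p = 0.000189). For these 3 genes the FibVeh level was 12, 17.6 and 16.1% of that in EpiVeh, which restates the large fold for which they were picked. Others with at least 5 CPM were Nrk (3.20 ± 0.71), a kinase gene, Tmprss11e (2.39 ± 0.60), a membrane protease gene of squamous epithelium, and Slc9a2 (2.09 ± 0.50), a sodium-proton exchanger gene. Rgs16 (2.27 ± 0.37) and Rgs5 (2.34 ± 0.63) encode regulators of G protein signalling, Nptx1 (2.23 ± 0.42) a neuronal pentraxin and Tnfrsf26 (2.10 ± 0.28) a decoy-type receptor of the tumour necrosis factor family. Tmprss11e lost the call with mouse 1 left out (adjusted p = 0.0716). Rgs5 lost the call with mouse 1 left out (adjusted p = 0.064). Tnc, which encodes the matrix protein tenascin-C, had the highest positive fold of the matrix list, at 822, 538 and 794 CPM in EpiVeh and 177, 129 and 199.8 CPM in FibVeh (log2 fold change 2.09 ± 0.23, adjusted p = 1.58e-06), and no library overlapped. The squamous list as a whole was split, with 6 of 14 genes higher in EpiVeh and 1 in FibVeh. Ivl, which encodes involucrin, had 1.70 ± 0.30 and Dsg3, a stratified desmosome gene, 1.77 ± 0.42. Dsg3 lost the call with mouse 1 left out (adjusted p = 0.054). Krt13, a keratin of mucosal stratified epithelium and of hillock cells, was higher in FibVeh, at 10.6, 10.8 and 8.01 CPM in EpiVeh and 36.6, 23.4 and 22.2 CPM in FibVeh (log2 fold change -1.48 ± 0.26, adjusted p = 9.96e-05).

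Genes of differentiated lung cells varied widely between mice, and fewer of them passed. Scgb1a1, the secretoglobin of club cells, was at 22.7, 88 and 13.7 CPM in EpiVeh and 13, 20.7 and 11.3 CPM in FibVeh, and the groups overlapped (log2 fold change 1.46 ± 0.83, adjusted p = 0.153). Of 10 club cell genes, 3 passed and all were higher in EpiVeh, with Cbr2, a carbonyl reductase of club cells, at 1.29 ± 0.42 and Aldh1a1 at 1.50 ± 0.52, while the median was 1.25. Cbr2 lost the call without EpiVeh mouse 2 or FibVeh mouse 1 or 3 (adjusted p = 0.0562 to 0.171). Aldh1a1 lost the call without EpiVeh mouse 2 or FibVeh mouse 1 or 3 (adjusted p = 0.0605 to 0.167). Goblet cell genes had 7 of 10 higher in EpiVeh, among them Muc5b, a gel-forming mucin (1.46 ± 0.51) and Muc16, a membrane mucin (1.51 ± 0.27). The alveolar lists were mixed. The surfactant protein genes Sftpa1 (1.90 ± 0.49), Sftpb (1.22 ± 0.49) and Sftpd (1.06 ± 0.30) were higher in EpiVeh, whereas Sftpc, the most restricted marker of alveolar type 2 cells, was at 9.87, 19.8 and 5.26 CPM in EpiVeh and 12, 16.8 and 5.99 CPM in FibVeh (adjusted p = 0.999). Napsa, which encodes a protease that processes surfactant proteins, was higher in FibVeh, at 3.85, 5.59 and 2.23 CPM in EpiVeh and 23.1, 19.9 and 20.9 CPM in FibVeh (log2 fold change -2.46 ± 0.35, adjusted p = 1.87e-05). Muc5b lost the call without EpiVeh mouse 1 or 2 or FibVeh mouse 3 (adjusted p = 0.0546 to 0.168). Sftpb lost the call without EpiVeh mouse 1 or 2 or FibVeh mouse 1, 2 or 3 (adjusted p = 0.0717 to 0.31), and with the mouse as a block (adjusted p = 0.0528). With all 3 mice it kept the call only under DESeq2 and with the 6 libraries alone without a block. The remaining scalings, filters and models ended it (adjusted p = 0.0518 with at least 1 CPM in 3 libraries to 0.121 without a filter). Sftpd lost the call without EpiVeh mouse 2 or FibVeh mouse 3 (adjusted p = 0.0501 to 0.0722). Sftpa1 lost the call with mouse 2 left out (adjusted p = 0.0681). In all, 3 of 13 alveolar type 2 genes were higher in EpiVeh and 1 in FibVeh. Of 13 alveolar type 1 genes, 7 were higher in EpiVeh, with the water channel gene Aqp5 at 1.33 ± 0.18 and Pdpn at 1.30 ± 0.31. Rtkn2, also used as a type 1 marker, was higher in FibVeh (-2.25 ± 0.43). Of 13 ciliated cell genes, 4 were higher in EpiVeh, a share near the 25.3% of all genes tested, including Foxj1, their master regulator (1.36 ± 0.43). Foxj1 lost the call without EpiVeh mouse 2 or FibVeh mouse 3 (adjusted p = 0.0588 to 0.0804). Lung epithelial transcription factors followed the identity genes, with 9 of 12 higher in EpiVeh, such as Nkx2-1 (1.22 ± 0.24), Sox2 (1.37 ± 0.15) and Foxa1 (1.42 ± 0.15). Without the epithelial library of mouse 2, the median of the club cell list went from 1.25 to 0.41, that of the alveolar type 2 list from 0.55 to -0.18, and that of the ciliated list from 0.75 to -0.059.

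**Figure D3:**
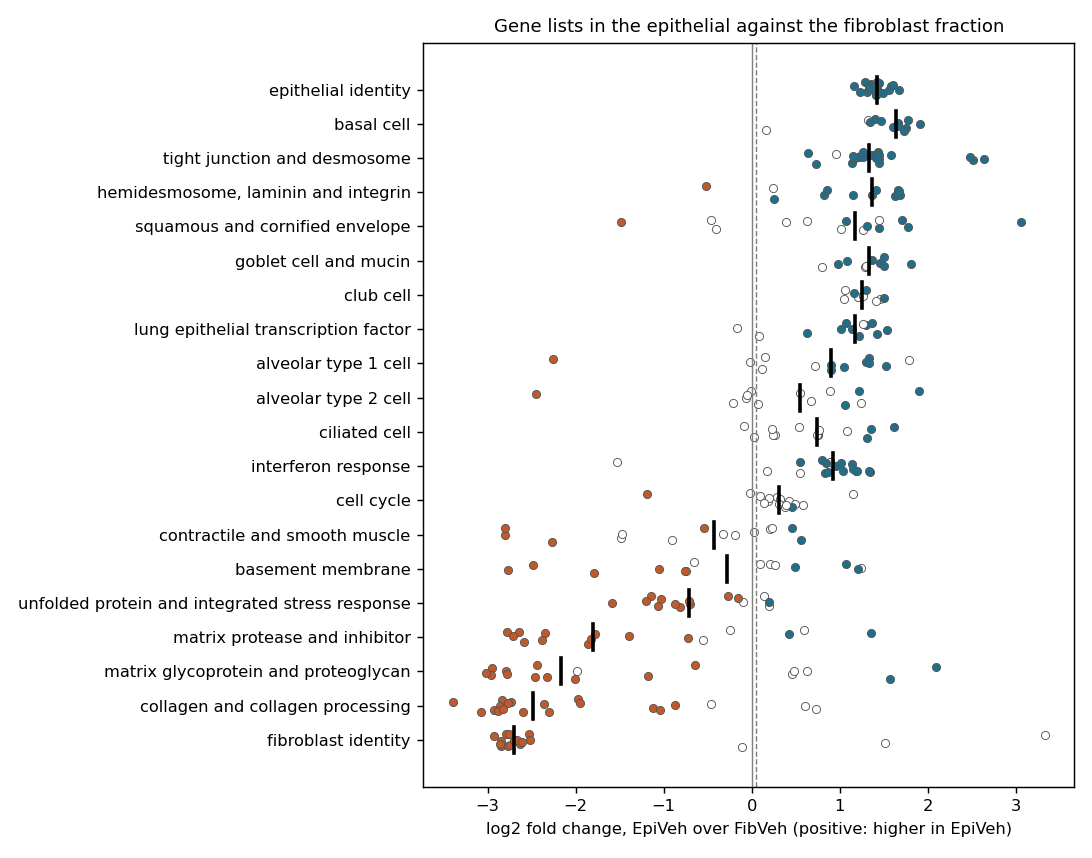
Log2 fold change of EpiVeh over FibVeh for each tested member of 20 gene lists, with filled points for genes past an adjusted p of 0.05, open points for the others and a bar at the list's median. Epithelial, basal and junction genes lie close together, with medians of 1.42, 1.64 and 1.33, collagen and fibroblast identity genes have medians of -2.48 and -2.71, and the dashed line is the median of all genes tested. Eln, at 0 in EpiVeh, is left out.

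Most fibroblast identity genes formed a narrow group in the opposite direction. Of 17 tested, 14 were higher in FibVeh and 0 in EpiVeh, with a median of -2.71, and the 14 lay between -2.52 for Cdh11, a mesenchymal cadherin gene, and -2.93 for Pdgfrb. Without the epithelial library of mouse 2 the median was -3.19. Vim, the mesenchymal intermediate filament gene, was at 211, 408 and 163 CPM in EpiVeh and 1716, 1651 and 1469 CPM in FibVeh (log2 fold change -2.63 ± 0.42, adjusted p = 5.63e-05). Pdgfra, a platelet-derived growth factor receptor of lung fibroblasts, was at 35.3, 60.7 and 27.1 CPM in EpiVeh and 309.9, 302 and 272 CPM in FibVeh (log2 fold change -2.85 ± 0.42, adjusted p = 2.49e-05). In both, the EpiVeh library of mouse 2 was the highest of its group and still below every FibVeh library. Prrx1 (-2.77), Twist1 (-2.75), Foxf1 (-2.86) and Tbx5 (-2.85), transcription factors of mesenchyme, were within the same range. Tcf21 and Tbx4, other factors of lung mesenchyme, had no count in any of the 6 libraries, where a count of 0 allows up to 3 counts in a library, and were not tested, nor was Thy1. Osr1 (-0.11 ± 0.24, adjusted p = 0.728), Meox1 and Fap did not pass. Meox1 and Fap, a fibroblast protease gene, were near the detection limit, with means of 0.481 and 0.298 CPM in EpiVeh and 0.166 and 0.0296 CPM in FibVeh. Fap held 6, 12 and 21 counts in EpiVeh and 0, 0 and 3 in FibVeh (adjusted p = 0.0505, and 0.0378 with the mouse as a block).

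Fibrillar collagen genes were among those with the largest differences. Of 20 collagen and collagen processing genes, 17 were higher in FibVeh and 0 in EpiVeh, with a median of -2.48. Col1a1, a chain of type I collagen, was at 54, 101 and 46.6 CPM in EpiVeh and 558, 468 and 513 CPM in FibVeh (log2 fold change -2.93 ± 0.65, adjusted p = 0.000999). Col1a2, the partner chain, was at 110.3, 217 and 77.2 CPM in EpiVeh and 1108, 966 and 813 CPM in FibVeh (log2 fold change -2.84 ± 0.52, adjusted p = 0.000198). Col5a3, a chain of type V collagen, was at 1.09, 2.66 and 1.9 CPM in EpiVeh and 17.1, 13 and 29.3 CPM in FibVeh (log2 fold change -3.40 ± 1.17, adjusted p = 0.0218). EpiVeh was lower than FibVeh in every pair for these genes. Col5a3 lost the call without EpiVeh mouse 1 or 3 or FibVeh mouse 3 (adjusted p = 0.0559 to 0.0737). Enzymes that are not specific to fibrillar collagen differed less, such as Plod2 (-1.04 ± 0.14) and P4ha1 (-1.12 ± 0.12), which hydroxylate lysine and proline. Lox, which cross-links collagen and elastin, did not pass and had a positive value (log2 fold change 0.61 ± 0.59, adjusted p = 0.406). In the fit of the 6 libraries with the mouse as a block Lox passed, at 0.52 (adjusted p = 0.00538). Col4a1 lost the call with mouse 2 left out (adjusted p = 0.0652). The type IV collagen gene Col4a1 was higher in FibVeh (-1.05 ± 0.28), whereas Col4a3 (1.52 ± 0.28), of the alveolar basement membrane, was higher in EpiVeh.

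Other matrix genes followed the collagens with named exceptions. Among 18 matrix glycoprotein and proteoglycan genes, 12 were higher in FibVeh and 2 in EpiVeh, with a median of -2.16. Dcn, which encodes the collagen-binding proteoglycan decorin, was at 16.8, 20.8 and 12.2 CPM in EpiVeh and 152, 100.1 and 137 CPM in FibVeh (log2 fold change -2.97 ± 0.40, adjusted p = 1.16e-05). Bgn (-2.79 ± 0.48), Fbn1 (-2.95 ± 0.61) and Lum (-3.02 ± 0.47) had similar folds. Fn1, which encodes fibronectin, differed less, at -0.64 ± 0.18. Fn1 lost the call with mouse 3 left out (adjusted p = 0.116). The 2 genes higher in EpiVeh were Tnc, above, and Fbln1, a fibulin gene (1.57 ± 0.34). Basement membrane genes were divided between the fractions, with 3 of 14 higher in EpiVeh and 5 in FibVeh. Agrn (1.07 ± 0.15) and Lama1 (1.21 ± 0.27) were on the epithelial side, and Nid2 (-2.49 ± 0.56), Lama2 (-2.77 ± 0.50) and Hspg2 (-1.79 ± 0.27) on the fibroblast side. Of 16 matrix protease and inhibitor genes, 11 were higher in FibVeh, such as Mmp2 (-2.78 ± 0.47), Mmp9 (-2.59 ± 0.47) and Timp1 (-2.38 ± 0.28), and 2 in EpiVeh, the urokinase gene Plau (1.36 ± 0.23) and Mmp14 (0.42 ± 0.15). Mmp14 lost the call without EpiVeh mouse 1 or 3 or FibVeh mouse 1 or 2 (adjusted p = 0.0615 to 0.138). Contractile genes did not follow. Acta2, smooth muscle actin, was at 5.05, 7.2 and 4.84 CPM in EpiVeh and 13.8, 15.7 and 18.3 CPM in FibVeh and did not pass (log2 fold change -1.49 ± 1.09, adjusted p = 0.266), although the groups did not overlap. With the 6 libraries alone Acta2 passed, at -1.54 (adjusted p = 0.000815). Of 14 tested, 4 were higher in FibVeh, including Des (-2.80 ± 0.42) and Mylk (-2.27 ± 0.50), and 2 in EpiVeh, Tpm1 (0.56 ± 0.11) and Srf (0.46 ± 0.079).

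Genes for secreted signals were divided between the fractions, with 31 of 85 ligand genes higher in EpiVeh and 30 in FibVeh, where 25.3% and 25.1% of all genes tested were. Receptor genes had 25 of 68 higher in EpiVeh and 19 in FibVeh, and inhibitors or modulators 7 and 14 of 28. In the fibroblast growth factor pathway, 4 of 6 ligand genes were higher in FibVeh and 0 in EpiVeh. Fgf7, keratinocyte growth factor, was at 16.6, 24.1 and 12.1 CPM in EpiVeh and 95.6, 115 and 110.5 CPM in FibVeh (log2 fold change -2.61 ± 0.38, adjusted p = 2.1e-05). Fgf10, the budding signal of the lung mesenchyme, was at 3.43, 5.98 and 1.81 CPM in EpiVeh and 25.7, 29.1 and 21.3 CPM in FibVeh (log2 fold change -2.76 ± 0.47, adjusted p = 0.000103). Fgf2 (-2.88 ± 0.54) and Fgf18 (-2.70 ± 0.36) were also higher in FibVeh. Fgfr2, whose epithelial isoform binds Fgf7 and Fgf10, was at 34.5, 59.6 and 23.9 CPM in EpiVeh and 19.7, 30.8 and 17 CPM in FibVeh and did not pass (log2 fold change 0.80 ± 0.36, adjusted p = 0.0729). Fgfr1, the receptor common in mesenchyme, was higher in FibVeh (-2.40 ± 0.44), and Fgfr3 was higher in EpiVeh (1.20 ± 0.47). With the mouse as a block Fgfr2 passed (adjusted p = 0.0102). Fgfr3 lost the call without EpiVeh mouse 1 or 2 or FibVeh mouse 1 or 3 (adjusted p = 0.0668 to 0.275). Hgf, hepatocyte growth factor, was at 1.44, 2.73 and 0.72 CPM in EpiVeh and 14.2, 14.7 and 11.6 CPM in FibVeh (log2 fold change -3.06 ± 0.56, adjusted p = 0.000189). Its receptor gene Met was at 322, 243 and 285 CPM in EpiVeh and 158, 146 and 161 CPM in FibVeh (log2 fold change 0.87 ± 0.19, adjusted p = 0.000731). Hgf and Met therefore lay on opposite sides with no overlap, and Mst1r, the related receptor, was on the epithelial side (1.27 ± 0.17). Spint1 and Spint2, inhibitors of the proteases that activate Hgf, were higher in EpiVeh (1.35 and 1.37).

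Wnt ligand genes and their modulators parted by member. Wnt7a was at 42.4, 19.6 and 47.7 CPM in EpiVeh and 8.49, 4.04 and 13.9 CPM in FibVeh (log2 fold change 2.06 ± 0.40, adjusted p = 0.00032). Wnt7b, the main Wnt of lung epithelium in development, was at 255, 197 and 267 CPM in EpiVeh and 91.9, 77.5 and 120.3 CPM in FibVeh (log2 fold change 1.31 ± 0.19, adjusted p = 1.97e-05). Wnt4 (1.34 ± 0.20), Wnt11 (1.63 ± 0.31) and Wnt9a (0.78 ± 0.20) were also higher in EpiVeh. Wnt6 (-2.77 ± 0.50) and Rspo3, which potentiates Wnt signals (-2.38 ± 0.44), were higher in FibVeh. Frizzled and co-receptor genes were on both sides, with 7 of 15 higher in EpiVeh, such as Fzd4 (1.12 ± 0.26) and Lrp5 (0.78 ± 0.11), and 5 in FibVeh, such as Ror2 (-2.60 ± 0.34). The 3 inhibitor genes that passed, such as Wif1 (-2.56 ± 0.60) and Dkk3 (-1.69 ± 0.24), were all higher in FibVeh. Lef1, a transcription factor and target of the pathway, was at 0.602, 1.79 and 0.545 CPM in EpiVeh and 8.53, 9.98 and 9.55 CPM in FibVeh (log2 fold change -3.26 ± 0.46, adjusted p = 1.52e-05). Axin2, the usual readout of canonical Wnt signalling, was at 0.255, 0.323 and 0.327 CPM in EpiVeh and 1.68, 1.13 and 0.949 CPM in FibVeh (log2 fold change -2.04 ± 0.57, adjusted p = 0.00571). Both were higher in FibVeh in 3 of 3 pairs, at low levels in EpiVeh. Of the other feedback genes, Nkd2, which dampens the pathway, was higher in EpiVeh (1.44 ± 0.43) and Nkd1 did not pass. Nkd2 lost the call without FibVeh mouse 3 (adjusted p = 0.0582). Wif1 lost the call with mouse 3 left out (adjusted p = 0.0572). Wnt9a lost the call with mouse 3 left out (adjusted p = 0.0811).

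Ligand genes of the bone morphogenetic protein family and the antagonist gene Grem1 were on opposite sides. Bmp4 (1.15 ± 0.31), Bmp5 (1.28 ± 0.42), Bmp6 (1.35 ± 0.28) and Bmp7 (1.18 ± 0.24) were higher in EpiVeh, 4 of 5 ligand genes tested. Bmp5 lost the call without EpiVeh mouse 2 or FibVeh mouse 1 or 3 (adjusted p = 0.0569 to 0.127). Bmp4 lost the call without EpiVeh mouse 2 (adjusted p = 0.06). Grem1, a secreted antagonist, was at 156, 323 and 105 CPM in EpiVeh and 1202, 1454 and 1029 CPM in FibVeh (log2 fold change -2.66 ± 0.53, adjusted p = 0.00044). The target gene Id3 (-1.89 ± 0.36) was also higher in FibVeh. In the transforming growth factor beta family, the receptor genes Tgfbr1 (1.24 ± 0.14) and Tgfbr2 (0.75 ± 0.097) were higher in EpiVeh and the co-receptor gene Tgfbr3 in FibVeh (-2.75 ± 0.40). The ligand gene Tgfb3 was higher in FibVeh (-0.87 ± 0.19), and Tgfb1 did not pass (log2 fold change 0.16 ± 0.30, adjusted p = 0.684). Ctgf (1.31 ± 0.27) and Tgfbi (1.76 ± 0.42), targets of the pathway, were higher in EpiVeh. Tgfbi lost the call with mouse 1 left out (adjusted p = 0.0686). The Hedgehog transducers Gli2 (-2.94 ± 0.47) and Gli1 were higher in FibVeh. Gli1, their transcriptional target, held 0.0559 CPM on average in EpiVeh and 0.79 in FibVeh. The ligand gene Shh passed on few counts, with 2, 0 and 0 in EpiVeh and 4, 12 and 5 in FibVeh (adjusted p = 0.0127). Shh lost the call without EpiVeh mouse 3 or FibVeh mouse 2 (adjusted p = 0.0546 to 0.0548). Ihh was not tested. In the Notch pathway Jag1 (1.01 ± 0.20), Jag2 (1.49 ± 0.19) and Dll1 (1.06 ± 0.30), the receptor gene Notch1 (0.92 ± 0.12) and the targets Hes1 (0.89 ± 0.095) and Nrarp (1.23 ± 0.24) were higher in EpiVeh, whereas Notch2 (-0.39 ± 0.087) and Notch3 (-0.74 ± 0.13) were higher in FibVeh. Dll1 lost the call with mouse 2 left out (adjusted p = 0.0504).

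**Figure D4:**
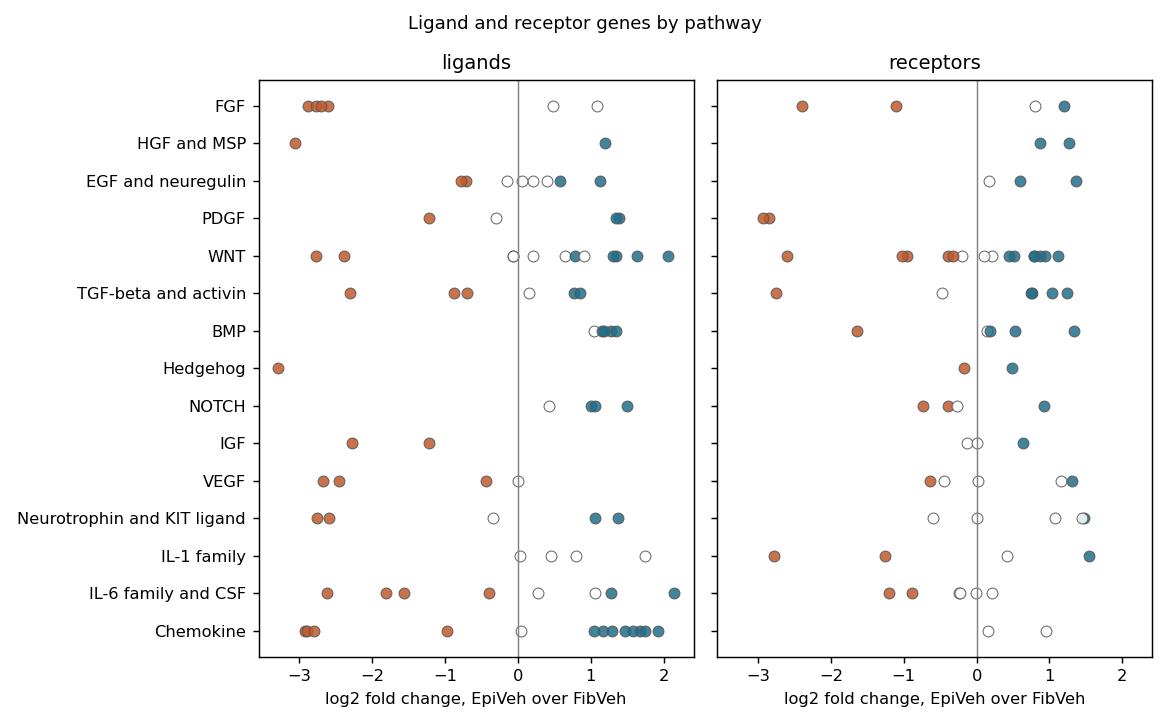
Log2 fold change of EpiVeh over FibVeh for ligand genes and receptor genes of 15 pathways, with filled points for an adjusted p under 0.05. Fibroblast growth factor ligands with Hgf lie at -3.06 to -2.61 where they passed, Met and Mst1r at 0.87 and 1.27, and Pdgfra and Pdgfrb at -2.85 and -2.93. Rspo2, at 0 in EpiVeh, is left out.

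Platelet-derived growth factor genes were on both sides, with 2 of 4 ligand genes higher in EpiVeh, 1 in FibVeh and both receptor genes higher in FibVeh. The 4 ligand genes summed to 185.9 to 233.5 CPM in EpiVeh and 255.1 to 277.7 in FibVeh. Pdgfb was at 69.3, 69.5 and 99.9 CPM in EpiVeh and 24.5, 28.9 and 37.7 CPM in FibVeh (log2 fold change 1.39 ± 0.25, adjusted p = 0.000183). Pdgfd was also higher in EpiVeh (1.35 ± 0.34), whereas Pdgfa (-1.21 ± 0.13) and the receptor genes Pdgfra and Pdgfrb (-2.93 ± 0.46) were higher in FibVeh. Tgfa (1.12 ± 0.14) and Areg (0.57 ± 0.10), ligands of the epidermal growth factor receptor, and Erbb3 (1.36 ± 0.15) were higher in EpiVeh, while Ereg (-0.71 ± 0.14) was higher in FibVeh. Egfr itself did not pass (log2 fold change 0.17 ± 0.16, adjusted p = 0.404). Igf1 (-2.27 ± 0.45) and the binding protein genes Igfbp4 (-2.61 ± 0.42) and Igfbp6 (-2.94 ± 0.57) were higher in FibVeh, and Igfbp3 in EpiVeh (1.58 ± 0.29). Vegfa, the main angiogenic factor, was at 863, 845 and 941 CPM in EpiVeh and 848, 840 and 959 CPM in FibVeh and did not differ at the threshold (adjusted p = 0.99). Vegfc, the lymphatic growth factor, was higher in FibVeh (-2.67 ± 0.41). Bdnf (-2.75 ± 0.44) and Gdnf (-2.58 ± 0.49), neurotrophic factors, were higher in FibVeh, and the basal cell receptor gene Ngfr in EpiVeh (1.47 ± 0.22).

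Chemokine and cytokine genes were found on both sides. Cxcl12, the ligand of Cxcr4, was at 16.7, 33.6 and 10.2 CPM in EpiVeh and 182, 163 and 109 CPM in FibVeh (log2 fold change -2.91 ± 0.52, adjusted p = 0.000139). Ccl2, a monocyte chemokine, was at 9.24, 14.1 and 9.2 CPM in EpiVeh and 79.1, 74.2 and 87.9 CPM in FibVeh (log2 fold change -2.89 ± 0.54, adjusted p = 0.000217). Ccl7 (-2.80 ± 0.45), Il6 (-2.62 ± 0.54) and Csf1 (-1.57 ± 0.27) were on the same, fibroblast, side. Of 13 chemokine ligand genes, 8 were higher in EpiVeh and 4 in FibVeh. Ligand genes of the interleukin-6 family and the colony-stimulating factors had 2 of 8 higher in EpiVeh and 4 in FibVeh. Of 4 interleukin-1 family ligand genes 0 passed edgeR's test, with 0 at an unadjusted p under 0.05 and 0 under DESeq2. Cxcl16 (1.58 ± 0.20) and Cxcl5 (1.47 ± 0.43) were on the epithelial side. Csf2, which encodes the cytokine that sustains alveolar macrophages, was at 31.1, 17.7 and 71.9 CPM in EpiVeh and 6.64, 2.95 and 18 CPM in FibVeh and overlapped in 1 library (log2 fold change 2.14 ± 0.55, adjusted p = 0.00318). Cxcl5 lost the call with mouse 1 or 3 left out (adjusted p = 0.076 and 0.0578). Csf2 lost the call with mouse 1 left out (adjusted p = 0.0593). Ppbp, a neutrophil chemokine gene, was at 626, 158 and 786 CPM in EpiVeh and 152, 38.5 and 224 CPM in FibVeh and also overlapped (log2 fold change 1.92 ± 0.77, adjusted p = 0.0436). Ppbp lost the call without EpiVeh mouse 1 or 3 or FibVeh mouse 1 or 2 (adjusted p = 0.0824 to 0.15). Csf2 lost the call with the 6 libraries alone (adjusted p = 0.0595). The receptor genes of the interleukin-1 family lay on both sides, with Il18r1 (1.54 ± 0.17) in EpiVeh and Il1rl1 (-2.78 ± 0.31), the receptor of interleukin-33, and Il1r1 (-1.26 ± 0.28) in FibVeh.

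Most interferon response genes were higher in EpiVeh, and most endoplasmic reticulum stress genes in FibVeh. Of 18 interferon response genes, 14 were higher in EpiVeh and 0 in FibVeh, with a median of 0.93. Ifih1, a sensor of double-stranded RNA, was at 40.2, 37.6 and 32.7 CPM in EpiVeh and 14.6, 15.4 and 13.5 CPM in FibVeh (log2 fold change 1.34 ± 0.13, adjusted p = 5.97e-07). Usp18 (1.33 ± 0.25) and Mx1 (1.19 ± 0.28) were higher as well. Of 15 genes of the unfolded protein and integrated stress responses, 11 were higher in FibVeh and 1 in EpiVeh, with a median of -0.71. Hspa5, the chaperone BiP, was at 1185, 1147 and 1108 CPM in EpiVeh and 2559, 2113 and 2370 CPM in FibVeh (log2 fold change -1.03 ± 0.11, adjusted p = 1.65e-06). Ddit3 (-1.58 ± 0.15), which encodes CHOP, and Asns (-1.14 ± 0.14), asparagine synthetase, were higher in FibVeh, and Sesn2 was slightly higher in EpiVeh (0.20 ± 0.073). Sesn2 lost the call without EpiVeh mouse 1, 2 or 3 or FibVeh mouse 1 or 3 (adjusted p = 0.0581 to 0.148). With all 3 mice it kept the call only with the mouse as a block on all 24 libraries. The other scalings, filters and models ended it (adjusted p = 0.0776 under DESeq2 to 0.126 with library totals alone). The groups did not overlap for Ifih1 or Hspa5.

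Metabolic and stress lists were less one-sided. Of 20 cholesterol synthesis genes, 8 were higher in EpiVeh, such as Cyp51 (1.10 ± 0.28), and 1 in FibVeh, Sqle (-0.65 ± 0.22), which encodes squalene epoxidase. Sqle lost the call without EpiVeh mouse 2 or FibVeh mouse 1 (adjusted p = 0.0619 to 0.0937). Cyp51 lost the call with mouse 3 left out (adjusted p = 0.058). Of 15 glycolysis and hypoxia genes, 3 were higher in EpiVeh, such as Egln3, a prolyl hydroxylase gene of the hypoxia response (1.26 ± 0.19), and 6 in FibVeh, such as the glucose transporter gene Slc2a1 (-0.59 ± 0.13). Of 16 genes responding to Nrf2 and to xenobiotics, 6 were higher in EpiVeh, such as Gsto1 (1.49 ± 0.25) and Cyp1b1 (1.16 ± 0.18), and 3 in FibVeh, such as Hmox1, heme oxygenase 1 (-1.80 ± 0.19). Targets of p53 had 6 of 12 higher in FibVeh, such as Mdm2 (-1.25 ± 0.19) and Cdkn1a (-0.50 ± 0.10), and 1 in EpiVeh, Gdf15 (1.32 ± 0.25). In the retinoic acid list, the synthesis genes Aldh1a3 (1.95 ± 0.54), Aldh1a1 and Rdh10 (1.19 ± 0.15) were higher in EpiVeh, and Stra6, the retinol uptake receptor (-2.31 ± 0.22), and Cyp26b1 (-0.82 ± 0.20), which degrades retinoic acid, in FibVeh. Aldh1a3 lost the call with mouse 1 left out (adjusted p = 0.0733). Cyp26b1 lost the call with mouse 3 left out (adjusted p = 0.0779). Among 16 cell cycle genes 1 was higher in each fraction, Pcna in EpiVeh (0.46 ± 0.13) and E2f1 in FibVeh (-1.19 ± 0.11). Pcna lost the call without EpiVeh mouse 1 (adjusted p = 0.058).

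Genes of the phosphodiesterase 4 family, the target of tanimilast, were present in both fractions of the untreated organoids. Pde4b, a phosphodiesterase 4 gene, was at 16, 17.3 and 28.6 CPM in EpiVeh and 6.61, 6.47 and 10.2 CPM in FibVeh (log2 fold change 1.41 ± 0.29, adjusted p = 0.00058). It was higher in EpiVeh with no overlap. Pde4a (log2 fold change -0.29 ± 0.22, adjusted p = 0.285) and Pde4d (log2 fold change -0.0083 ± 0.13, adjusted p = 0.964) did not pass. Pde4a passed in the fit of the 6 libraries with the mouse as a block, at -0.36 (adjusted p = 0.0335). Pde3b (-1.76 ± 0.37), another phosphodiesterase gene, and Adcy7 (-2.05 ± 0.43), an adenylyl cyclase gene, were higher in FibVeh. In all, 5 of 15 drug target and cyclic AMP genes were higher in EpiVeh and 6 in FibVeh, against 25.3% and 25.1% of all genes tested.

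Lists of further cell type markers, neuroendocrine and lipofibroblast genes among them, ranged in summed level from near the detection limit to high. A sum does not show that the cell type was present. The mesothelial list summed to 1701 to 2057 CPM in EpiVeh and 899.6 to 1130 in FibVeh. The sums were 393.7 to 434.6 and 331.6 to 350.8 for pericyte and lipofibroblast genes. For nerve and Schwann cell genes they were 114.7 to 128.5 and 57.94 to 64.24, and for neuroendocrine genes 17.35 to 30.81 and 118.7 to 154.3. Of 6 endothelial genes tested, 4 were higher in FibVeh, with a summed level over the whole list of 2.41 to 4.52 CPM in EpiVeh and 7.06 to 7.98 in FibVeh. Cdh5, the endothelial cadherin, held 0.0497 and 0.31 CPM on average. Cdh5 lost the call without EpiVeh mouse 1 or 3 or FibVeh mouse 1, 2 or 3 (adjusted p = 0.0512 to 0.153). The call was also lost with mouse 1 or 3 left out (adjusted p = 0.179 and 0.122) and without a filter on low counts (adjusted p = 0.0674). Of 6 leukocyte genes 0 passed edgeR's test and 0 that of DESeq2, with 1 at an unadjusted p under 0.05, while the pan-leukocyte gene Ptprc, with 0 to 5 counts a library, was not tested. The leukocyte list summed to 111 to 193 CPM in EpiVeh and 70.0 to 102 in FibVeh, mostly Cd74 and Cd68. With the mouse as a block Cd68 passed, at 0.62 (adjusted p = 0.00429). In the fit of the 6 libraries with that block Cd74 passed too, at 0.74 (adjusted p = 0.000267), and both were higher in EpiVeh. Of 6 mesothelial genes 3 were higher in EpiVeh, Bnc1 (1.73 ± 0.45), Upk1b (1.13 ± 0.18) and Msln (0.83 ± 0.13), and Wt1, a mesothelial and mesenchymal factor, in FibVeh (-3.23 ± 0.76). Pericyte and lipofibroblast genes had 4 of 8 on each side, with Cspg4 (-2.72 ± 0.57) and Lpl (-2.81 ± 0.43) in FibVeh and Mcam (1.62 ± 0.36) and Plin2 (0.82 ± 0.11) in EpiVeh. Nerve and Schwann cell genes had 2 of 5 on each side, and of 4 neuroendocrine genes Uchl1 (-2.77 ± 0.41) was higher in FibVeh and Pyy (1.36 ± 0.43) in EpiVeh. Pyy lost the call without FibVeh mouse 2 or 3 (adjusted p = 0.0529 to 0.072). Bnc1 lost the call with mouse 1 left out (adjusted p = 0.0838). The single red blood cell gene tested, Hba-a1, did not pass and held 0.0394 and 0.143 CPM. Whether such cells were present, and their part in the other results, was not tested.

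The largest differences on the fibroblast side, among genes with at least 5 CPM and an established name, belonged to genes of unlike function. They included Lef1 and Col5a3, above, the carbonic anhydrase gene Car6 (-3.40 ± 0.51), the prolactin-family gene Prl8a9 (-3.28 ± 0.42) and the protocadherin gene Pcdh15 (-3.23 ± 0.63). Rarres2, which encodes the chemoattractant chemerin, was at 2.6, 3.58 and 2.25 CPM in EpiVeh and 35.7, 17.1 and 23.8 CPM in FibVeh (log2 fold change -3.18 ± 0.45, adjusted p = 1.46e-05). Msx1, a homeobox gene of mesenchyme, was at 0.51, 0.819 and 0.545 CPM in EpiVeh and 6.64, 5.74 and 4.18 CPM in FibVeh (log2 fold change -3.14 ± 0.44, adjusted p = 1.34e-05). Nos2, inducible nitric oxide synthase, was at 7.27, 7.35 and 8.51 CPM in EpiVeh and 61.8, 40.0 and 99.5 CPM in FibVeh (log2 fold change -3.12 ± 0.45, adjusted p = 2.09e-05). These 3 genes were separated in all libraries. Pde10a (-3.11 ± 0.43), a phosphodiesterase gene, and Tnxb (-3.10 ± 0.44), a tenascin gene, completed the group with the ribosomal pseudogenes Rpl35a-ps3 (-4.28 ± 0.96) and Rpl3-ps2 (-3.13 ± 0.55). Reads of both pseudogenes may be shared with the parent genes, which was not tested. The smallest p-value of the comparison belonged to Fosl1, an AP-1 transcription factor gene, at 40.3, 42.7 and 35.9 CPM in EpiVeh and 143, 144 and 148 CPM in FibVeh (log2 fold change -1.87 ± 0.12, adjusted p = 2.9e-08). Egr1, an early response transcription factor gene, was higher in FibVeh too (log2 fold change -1.58 ± 0.13, adjusted p = 2.59e-07).

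The difference between the fractions was not shown to change with either treatment. In smoke-exposed organoids 7299 genes (38.1%) passed between the fractions and in drug-treated organoids 8463 (44.2%), against 9651 (50.4%) in untreated organoids. The test of the difference itself called 0 of 19142 genes for smoke extract (0%), with 1061 at an unadjusted p under 0.05, and 0 for the drugs (0%), with 391. DESeq2 called 11 and 1. Efna3, an ephrin ligand gene, had the smallest p for smoke extract, with a change of -1.17 ± 0.25 on the log2 scale, where a negative value is a lower ratio of EpiVeh to FibVeh in untreated than in smoke-exposed organoids (adjusted p = 0.842). Its means were 2.65 CPM in EpiVeh and 9.35 in FibVeh, and 4.48 in EpiCSE and 7.02 in FibCSE. It was followed by 5430405H02Rik, a clone-named gene, with -1.76, Dbi, an acyl-CoA binding protein gene, with -0.40 and Srm, which encodes spermidine synthase, with -0.53, all at an adjusted p of 0.842. For the drugs the 5 smallest p-values belonged to predicted genes and unnamed loci at under 1 CPM in every group. Epcam's fraction difference was 1.67 in untreated, 1.74 in smoke-exposed and 1.42 in drug-treated organoids, and that of Col1a1 -2.93, -3.19 and -3.26. The median of the club cell list was 1.25, 0.30 and 0.92, the untreated value being 0.41 without the epithelial library of mouse 2, and that of the contractile list -0.43, -2.01 and -0.64, the untreated value being -0.78 with at least 1 CPM in 3 libraries. No gene of either list passed the test of the change. The 3 comparisons use separate libraries of the same 3 mouse numbers.

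Whole chromosomes leaned to one fraction. Genes were assigned to chromosomes by their Ensembl identifier in GENCODE M21, and the median log2 fold change of all genes tested on a chromosome was compared with the 0.052 over all genes. Chromosome 12 had 0.37 over 583 genes, chromosome 16 0.37 over 505 and chromosome 4 0.30 over 1113. Chromosome 5 had -0.19 over 1066 genes, chromosome 19 -0.18 over 565, chromosome 15 -0.17 over 668, the X chromosome -0.15 over 588, chromosome 6 -0.15 over 843 and chromosome 17 -0.12 over 858. On chromosome 16, 75.2% of genes had a positive value, and on chromosome 19 40.5%. The 3 mouse pairs lay close together, with 0.35, 0.30 and 0.40 on chromosome 16 and -0.20, -0.15 and -0.15 on chromosome 19. Among the genes that were not called at 2-fold, chromosome 12 had 0.36, chromosome 16 0.30, chromosome 4 0.27 and chromosome 19 -0.16, while chromosome 5 had -0.066 and the X chromosome -0.049. Over the 12 mouse pairs of all 4 treatments, chromosome 12 lay between 0.12 and 0.38, chromosome 16 between 0.19 and 0.40, and chromosome 19 between -0.20 and -0.077. These shifts are small beside those of the identity genes, have no test, and their cause was not tested.

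**Figure D5:**
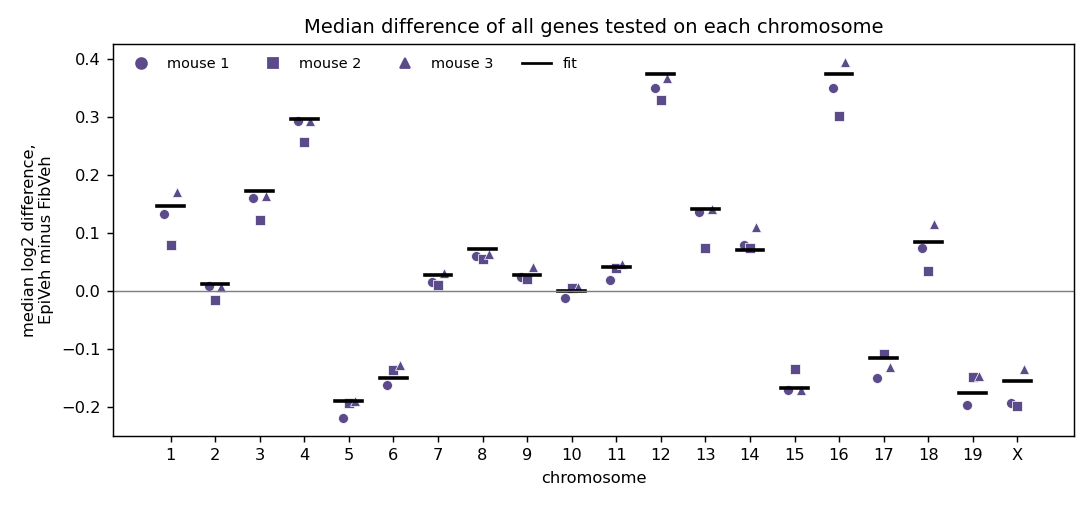
Median log2 difference between EpiVeh and FibVeh over all genes tested on each chromosome, with a symbol for each mouse number and a bar for the median of the fit. Chromosomes 4, 12 and 16 lie highest in all 3 mice, from 0.26 to 0.40, and chromosomes 5, 6, 15, 17, 19 and X lowest, from -0.22 to -0.11.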

How the data were processed

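RNA of the 6 libraries was read as a table of raw counts per gene deposited by the authors, 1 column for each of 24 libraries and 8 groups. Trimmomatic 0.30 and DESeq2 are named in the submitters' processing notes, while the sources used here do not give the aligner, the counter or its use of strand. Overlapping genes, antisense partners and near-identical copies, such as the ribosomal pseudogenes, may therefore share reads. A human assembly name stands beside the mouse in those notes, so no gene coordinate of the file is printed. Loci without a gene name (NewGene) took 0.612 to 1.04% of the counts in the 6 libraries. No replicate pair of a group had identical values, and all 6 pairs differed by more than counting noise.

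Counts were scaled with edgeR's TMM factors, filtered with filterByExpr by group and fitted with edgeR's quasi-likelihood test on all 24 libraries as 8 group means without a mouse term (R 4.3.3, edgeR 4.0.16, limma 3.58.1). P-values were adjusted by Benjamini-Hochberg over the 19142 genes tested, with a threshold of 0.05. DESeq2 1.42.0 was an alternative. The other alternatives were 3 other scalings, no filter or a minimum of 1 CPM in 3 libraries, the mouse as a block, NewGene loci left out, each library or mouse left out, and the 6 libraries alone. The fit was run on simulated data first. For the fraction comparison far fewer genes were changed there than passed here. That run therefore gives no assurance for so many differences. The labels' batch entry names the mouse, and the numbers were taken from it to pair the libraries. Deviations from the group means of libraries of the same mouse correlated at 0.10, 0.34 and 0.23 across genes. For unlike mouse numbers the values lay between -0.28 and 0.048. Deviations within a group sum to 0, so these values are not independent and do not by themselves show the pairing.

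Named genes are the 12 with the largest fold in each direction with at least 5 CPM in the higher group, the same direction in all 3 mouse pairs and an established name, the 3 smallest p-values of each list, ligands and receptors, markers of other cell types and sex chromosome genes, and the 5 smallest p-values of each change with treatment. Further list members were named after their values were seen. The comparison, the gene lists and the rule were chosen with earlier results of these data known. Of 703 list entries, 702 were in the table and 635 were tested. Chromosomes come from GENCODE M21 by Ensembl identifier, and promoter windows from RefSeq on GRCm38.p6.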

Additional observations from a re-analysis of the deposited data

Results flagged for a closer look

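Prss23, a serine protease gene, lay on opposite sides of 0 in untreated and smoke-exposed organoids in all mouse pairs. Its log2 difference between the epithelial and the fibroblast library of the same mouse was -0.43, -0.62 and -0.31 in untreated organoids (mean -0.45) and 0.46, 0.36 and 0.32 after smoke extract (mean 0.38). Between EpiVeh and FibVeh it passed edgeR's test (log2 fold change -0.43 ± 0.15, adjusted p = 0.0229) and lost the call without EpiVeh mouse 2 or FibVeh mouse 1 or 3 (adjusted p = 0.0667 to 0.0843). The test of the change itself gave -0.82 ± 0.22 on the log2 scale (adjusted p = 0.842), and Prss23 was the 1 gene that passed it with the mouse as a block.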

How the results depend on the processing

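Under the other scalings, filters and models with all 3 mice, the number of genes that passed between EpiVeh and FibVeh went from 8616 without a filter to 10686 with the mouse number as a replicate block, against 9651. The shared calls were 86.6 to 99.8% of the 9651. With libraries or mice left out the count went from 5769 to 8970, with 2728 to 4372 genes higher in EpiVeh and 3041 to 4887 in FibVeh. The lowest values were those without mouse 3, which kept 59% of the calls. For a change of the fraction difference with smoke extract, 11 genes passed under DESeq2, among them Efna3, Srm and Dbi, and 1, Prss23, with the mouse block. For the drugs 1 predicted gene passed under DESeq2, and no other setting gave a call for either. The mouse block ended the call of Sftpb, gave one to Fgfr2, Fap, Cd68 and Cxcr4, and changed no other call of a named gene. Of 221 named genes called, 23 lost the call without 1 library. With all libraries of mouse 1, 2 or 3 left out, 23, 13 and 26 lost it, 40 in all, of which 18 kept it without any single library. The 6 libraries with the block gave 9 further calls and ended 2. Without a filter, 9 named genes lost the call.

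Genes that reversed were not called in any of these settings. Vegfa, at 0.0015, had -0.037 with DESeq2 size factors in edgeR, -0.028 with upper-quartile scaling, -0.050 with library totals alone, -0.049 with at least 1 CPM in 3 libraries, -0.037 under DESeq2, -0.039 without NewGene loci, and -0.046 and -0.044 with the 6 libraries alone, without and with the mouse block. With libraries left out, Vegfa went from -0.045 to 0.029, Sftpc from -0.66 to 0.37, Pde4d from -0.085 to 0.070, Osr1 from -0.37 to 0.022 and Nkd1 from -0.41 to 0.80. The causes were not tested. No median of epithelial identity genes (1.34 to 1.47), fibroblast identity genes (-3.19 to -2.48) or collagen genes (-2.81 to -2.34) changed sign under any setting, whereas those of the alveolar type 2, ciliated, nerve, neuroendocrine and pericyte lists did under at least 1 setting.

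At 31.8 to 47.0 counts for 1 CPM, genes near 0, such as Gli1, Shh, Fap and Meox1, rest on few counts, and intervals from counts cover counting error only. Each group holds 3 libraries, and absence of a call does not show that a gene was equal in both fractions. How pure either fraction was, and how far its genes were expressed in the other cell type, was not tested. The shares of identity genes and sex-linked genes in the opposite fraction are given above.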

Other observations

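Processed pseudogenes leaned to the fibroblast fraction. Of 909 tested, 217 (23.9%) were higher in FibVeh and 43 (4.73%) in EpiVeh, with a median log2 fold change of -0.33, where 27% and 29.2% of 14659 protein-coding genes were higher in FibVeh and EpiVeh. Genes for ribosomal proteins lay on the same side, with 45 of 80 higher in FibVeh and 7 in EpiVeh (median -0.31). Among 101 ribosomal protein pseudogenes, 32 were higher in FibVeh and 2 in EpiVeh (median -0.44). Reads of these pseudogenes may come from the parent genes, and this was not tested. The sets were taken by symbol and annotation after the values were seen and carry no test.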
